A study of Mus musculus with 38 samples.

Results

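This account concerns the T-cell receptor (TCR) gene loci of the mouse and the base-unpairing regions (BURs) that lie in them. A BUR is a stretch of DNA with a strong tendency to unpair under torsional strain, and the genome-wide map of BURs was made by letting recombinant SATB1 bind sonicated thymus DNA in vitro. All BURs whose midpoint lay in one of 3 windows of the mm9 genome (NCBIM37) were taken, namely the alpha/delta locus at chr14:53050000-54850000, the beta locus at chr6:40840000-41510000 and the gamma locus at chr13:19270000-19450000. Of the 238380 BURs of the map, 169 lay in the windows, 111 in the alpha/delta, 45 in the beta and 13 in the gamma window. The choice rests on position alone, and no BUR straddled a window edge.

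The BUR map and 10 ChIP-seq peak lists were used, all but the map from C57BL/6 mice labelled SATB1 wild-type. In urea ChIP-seq, fixed chromatin is first purified by ultracentrifugation in urea, which leaves proteins crosslinked to DNA, and it was done for SATB1 in thymocytes, skin and brain, with 2 lists each, and for CTCF in thymocytes and skin, with 1 list each. Standard ChIP-seq was done for SATB1 in thymocytes, with 2 lists. The thymocyte urea replicates, from mice 13 days old, differed in antibody volume (4 µl in replicate 1 and 2 µl in replicate 2), the skin replicates in sonication (55 s and 60 s) and the brain replicates in PCR cycles (10 and 12) and in labelled age (5 and 6 weeks). Every SATB1 list used the antibody 1583D except standard replicate 1, which used ab109122, and the standard replicates were sonicated for 15 s and 150 s. The labels of the thymocyte CTCF sample and of standard replicate 1 give both 13 days and 6 weeks. The skin cells were keratinocytes of the epidermis, labelled 13 days although the protocol and the methods name younger mice, and the brain cells came from cortex, whose protocol also names a younger age than the labels. The labels do not say that the replicates of a tissue came from separate animals, so the spread between them may be technical. The depth behind a peak is unknown, because the lists hold called peaks without their reads.

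T-cell receptors are assembled during development by V(D)J recombination, in which the RAG1/RAG2 recombinase joins variable (V), diversity (D) and joining (J) segments next to a constant (C) gene and the DNA between the joined ends usually leaves the chromosome. The delta segments sit inside the alpha locus, between its V segments and its J segments, and the gamma locus repeats V, J and C segments in small clusters. SATB1 is an abundant nuclear protein of thymocytes that organizes chromatin around its binding sites, and CTCF marks many of the boundaries and loop anchors of antigen receptor loci. The annotation placed 137 V, 4 D, 79 J and 6 C segments in the windows. Of these, 107 V, 2 D, 61 J and 1 C lay in the alpha/delta window, 23 V, 2 D, 14 J and 2 C in the beta window and 7 V, 4 J and 3 C in the gamma window. The delta constant gene bears no constant-gene label in this annotation and is not among them.

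The following sequences show what the BURs of the loci look like. Each is read 5′ to 3′ on the plus strand of NCBIM37, 300 bases around the summit, and the capitals mark its longest stretch without C or without G, the ATC sequence context that defines a BUR. For each locus they include the BUR with the highest in vitro enrichment and the one most enriched in both thymocyte urea SATB1 lists, and for the alpha/delta and beta loci the one nearest to the constant gene, which in part coincide. The alpha/delta BUR with the highest in vitro enrichment lay in an intron of the olfactory receptor gene Olfr1507 (shown from chr14:53112858-53113157), and its capitals span 74 bp without G. The alpha/delta BUR most enriched in thymocytes was also the nearest to Trac, the alpha constant gene (chr14:54827891-54828190), with 59 bp without G. The beta BUR with the highest in vitro enrichment lay in an intron of Gm4744 (chr6:40903526-40903825), with 39 bp without G. The beta BUR most enriched in thymocytes lay 3.16 kb from Trbv21 (chr6:41156238-41156537), with 35 bp without C. The beta BUR nearest to Trbc2, a beta constant gene, lay 2.58 kb from Trbd1 (chr6:41480221-41480520), with 116 bp without C, a run of GATA repeats. The gamma BUR with the highest enrichment in vitro and in thymocytes lay 2.90 kb from Tcrg-V3 (chr13:19338179-19338478), with 27 bp without G.
Alpha/delta BUR in Olfr1507: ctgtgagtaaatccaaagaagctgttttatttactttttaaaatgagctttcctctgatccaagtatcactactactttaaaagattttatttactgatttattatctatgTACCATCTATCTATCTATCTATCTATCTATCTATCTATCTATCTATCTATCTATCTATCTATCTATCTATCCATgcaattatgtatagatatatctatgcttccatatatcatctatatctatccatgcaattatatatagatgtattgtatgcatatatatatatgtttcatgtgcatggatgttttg
Alpha/delta BUR upstream of Trac: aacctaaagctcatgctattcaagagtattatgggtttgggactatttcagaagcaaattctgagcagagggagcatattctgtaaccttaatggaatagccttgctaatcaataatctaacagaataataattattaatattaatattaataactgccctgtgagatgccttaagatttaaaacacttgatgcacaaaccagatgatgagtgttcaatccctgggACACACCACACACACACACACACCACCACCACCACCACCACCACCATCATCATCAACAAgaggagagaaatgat
Beta BUR in Gm4744: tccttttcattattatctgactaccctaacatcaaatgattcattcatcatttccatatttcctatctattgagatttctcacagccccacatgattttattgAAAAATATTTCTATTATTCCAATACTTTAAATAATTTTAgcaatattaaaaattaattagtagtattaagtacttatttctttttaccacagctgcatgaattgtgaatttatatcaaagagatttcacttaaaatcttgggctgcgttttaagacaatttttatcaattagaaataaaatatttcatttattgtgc
Beta BUR near Trbv21: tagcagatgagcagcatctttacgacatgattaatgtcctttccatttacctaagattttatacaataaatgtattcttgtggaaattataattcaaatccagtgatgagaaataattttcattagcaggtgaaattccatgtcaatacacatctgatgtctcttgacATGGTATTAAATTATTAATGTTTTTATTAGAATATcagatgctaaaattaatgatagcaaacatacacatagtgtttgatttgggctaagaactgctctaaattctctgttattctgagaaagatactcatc
Beta BUR near Trbd1: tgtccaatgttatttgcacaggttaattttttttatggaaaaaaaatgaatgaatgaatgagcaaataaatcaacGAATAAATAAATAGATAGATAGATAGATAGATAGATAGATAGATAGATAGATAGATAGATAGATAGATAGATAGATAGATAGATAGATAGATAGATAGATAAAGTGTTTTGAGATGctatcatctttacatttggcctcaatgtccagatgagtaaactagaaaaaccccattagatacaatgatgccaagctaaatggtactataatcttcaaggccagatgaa
Gamma BUR near Tcrg-V3: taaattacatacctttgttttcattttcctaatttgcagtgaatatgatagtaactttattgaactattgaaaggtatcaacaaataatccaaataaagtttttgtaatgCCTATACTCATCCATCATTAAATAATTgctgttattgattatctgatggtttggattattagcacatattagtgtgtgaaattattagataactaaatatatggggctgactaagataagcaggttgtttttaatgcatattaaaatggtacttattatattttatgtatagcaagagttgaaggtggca
The capitals of the Olfr1507, Trac and Trbd1 BURs are simple repeats, whereas those near Trbv21, in Gm4744 and near Tcrg-V3 are not. Beyond the quantity that defines the map, the 169 BURs were close to all BURs in base content and length. Their median A/T content was 70.5% (all BURs 70.7%), their median length 443 bp (439 bp) and their median in vitro fold enrichment 6.34 (5.88). The longest stretch without C or G had a median of 50 bp, against 43 bp in all BURs, and was 57 bp at the alpha/delta, 38 bp at the beta and 39 bp at the gamma locus.

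All 3 loci held fewer BURs per length than the genome. The alpha/delta window had 6.17 BURs per 100 kb, the beta window 6.72 and the gamma window 7.22, against 9.08 over chromosomes 1 to 19, X and Y. These are ratios to the genome of 0.679, 0.740 and 0.795, with one map and so without a spread. The share of bases inside BURs gave the same direction, 2.88%, 2.81% and 3.14% against 4.20%. Most bins were inside the usual range of the genome. In bins of 100 kb, the 18 alpha/delta bins held 2 to 10 BURs (median 6.5) and the 7 beta bins 1 to 13 (median 8), while the genome's bins had a median of 7 and a 25th to 75th percentile range of 4 to 13. Below that range lay 1 alpha/delta bin with 2 BURs and 3 beta bins with 1, 2 and 2, where 2.09% of the genome's bins held fewer than 1 BUR and 6.95% fewer than 2. By the same measure the immunoglobulin loci had 9.93 (Igh), 11.7 (Igk) and 8.53 (Igl) BURs per 100 kb, and the surroundings of olfactory receptor genes 14.6. How far the TCR and immunoglobulin loci had recombined in the thymus DNA of the map is unknown. The part of repeated sequence in these densities was not tested.

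Within the alpha/delta and beta loci, BURs were unevenly spread between the V part and the part that holds D, J and C segments. The alpha/delta V part, 1508 kb from Trav2 to the last V segment before the first D segment, held 92 BURs, 6.10 per 100 kb. The 109.6 kb of D, J and C segments held 3 BURs, 2.74 per 100 kb, and the 38.0 kb between the V part and the first D segment held none. At the beta locus, the V part held 40 BURs in 391 kb, 10.2 per 100 kb. The 251 kb from the last upstream V segment to Trbd1, filled with trypsinogen and other protease genes, held 5 BURs, 1.99 per 100 kb, and the 15.0 kb of D, J and C segments held none. In the 251 kb, brain urea SATB1 had 10 and 8 peaks, 3.98 and 3.18 per 100 kb (genome 4.61 and 4.27), and both thymocyte urea lists 0. The map was made from thymus DNA, and the part of DNA loss by recombination in these counts was not tested. At the gamma locus, 4 BURs were nearest to a V segment and 9 to a J or C segment. A further 16 BURs lay in the 137 kb upstream of Trav2, among olfactory receptor genes, at 11.7 per 100 kb.

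The beta locus had the longest stretch without a BUR, 171 kb at chr6:41303953-41475172, longer than 99.9% of the gaps between neighbouring BURs in the genome, and it held no TCR segment. Next came 98.3 kb at chr6:41191900-41290241, which held the V segments Trbv29 and Trbv30. In the alpha/delta locus, a stretch of 68.0 kb at chr14:54759799-54827785 held 51 segments (50 J and 1 V), another of 81.9 kb at chr14:54665727-54747614 held 4, and one of 65.9 kb at chr14:54518579-54584463 held 2. The median gap was 10.7 kb at the alpha/delta, 6.17 kb at the beta and 13.5 kb at the gamma locus, against 5.37 kb in the genome. The part of repeated sequence in these gaps was not tested either. The map of the 3 loci shows these empty stretches beside the segments.

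**Figure D1:**
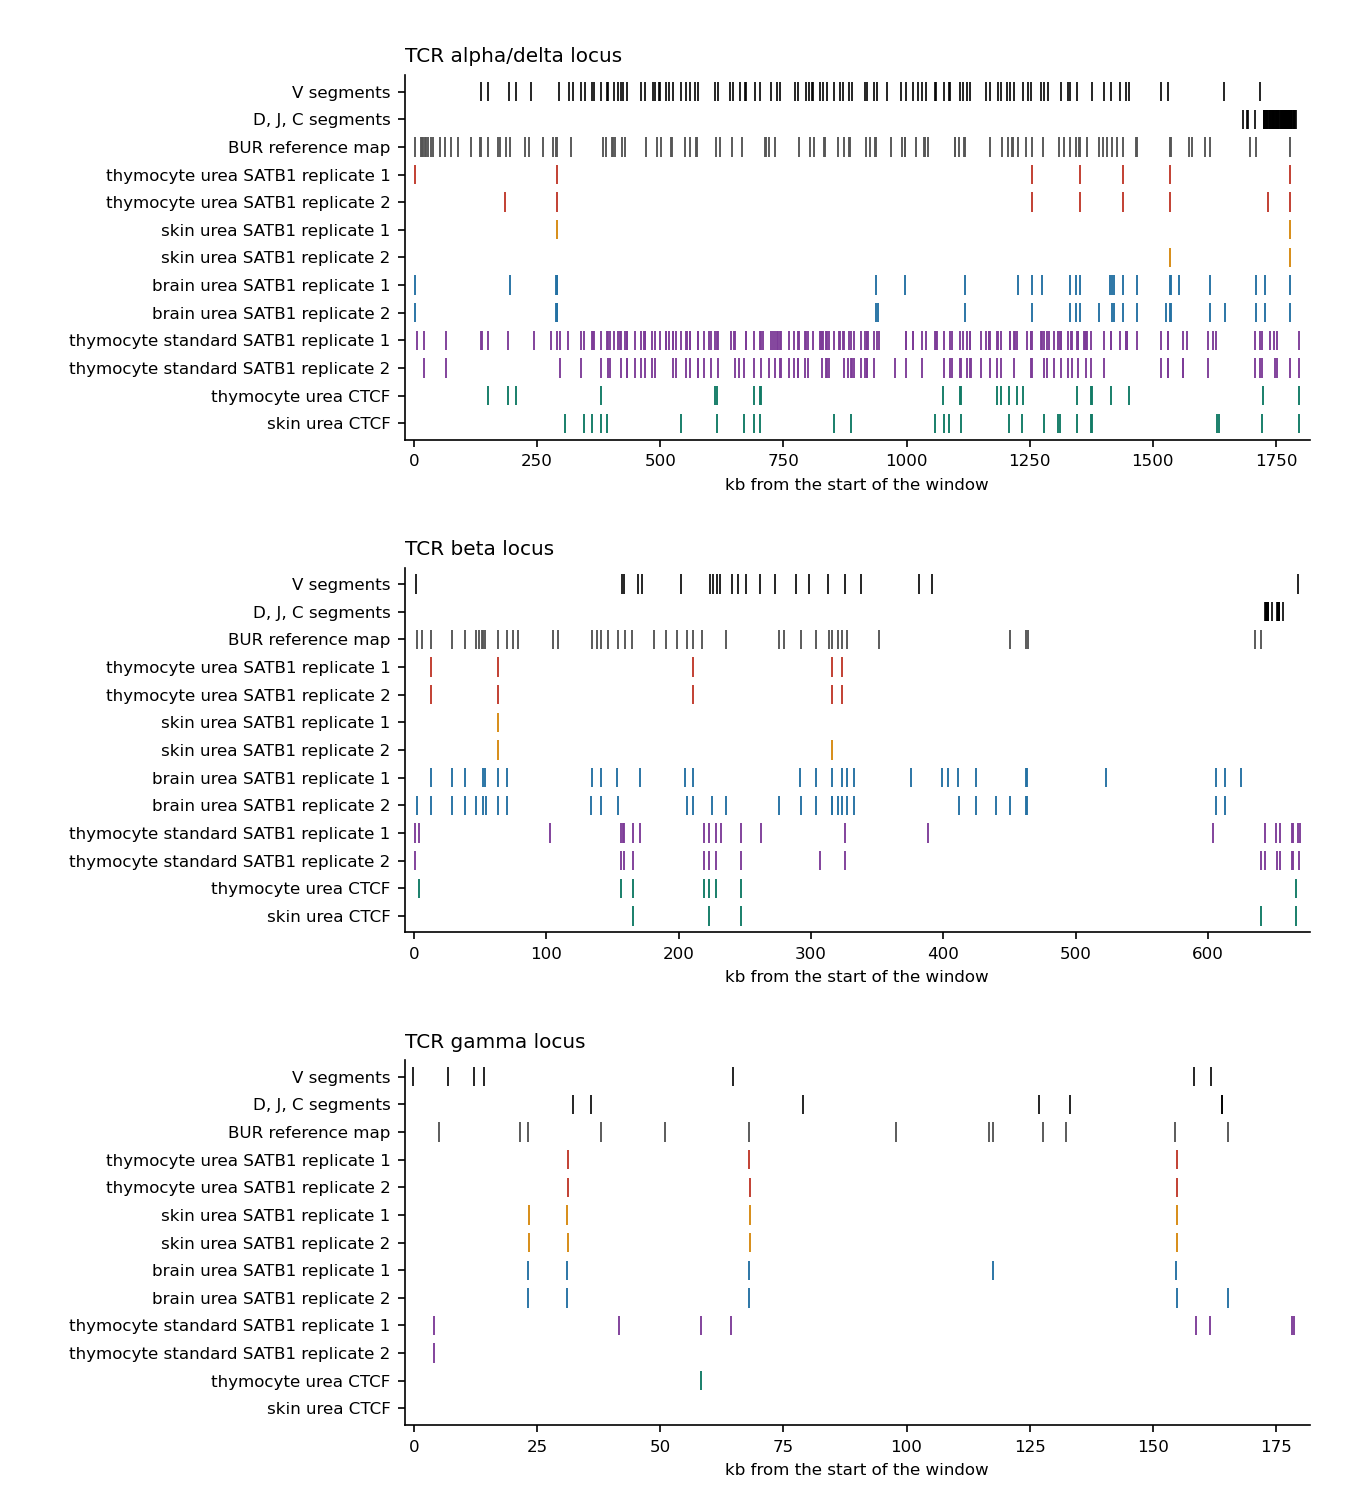
Positions of gene segments, BURs and peaks along the 3 TCR windows, in kb from the start of each window, with 1 tick for each item and 1 row for each of the 10 ChIP lists. The 51 segments between the last alpha/delta BURs sit in a stretch of 68.0 kb without a BUR, and the standard SATB1 rows are denser than the urea SATB1 rows along the alpha/delta V segments.

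The gene segments themselves held no BUR, except at the gamma constant genes. Of the 137 V segments, 0 overlapped a BUR, and of their 5′ ends 0 had a BUR within 500 bp, against 4.52% of the starts of 22367 protein-coding genes, 24.5% of olfactory receptor genes and 10.1% of immunoglobulin V segments. The median distance from a V segment to the nearest BUR was 3.19 kb at the alpha/delta, 4.93 kb at the beta and 3.14 kb at the gamma locus. None of the D and J segments overlapped a BUR. In contrast, the gamma C genes overlapped BURs, among them one in an exon of Gm16603 (chr13:19397628-19397920) and one in an intron of Tcrg-C (chr13:19435281-19435561). These had in vitro fold enrichments of 3.73 and 3.85, below the median of the loci, and a urea SATB1 peak met only the latter, in brain replicate 2 (fold enrichment 4.64). The heptamer CACAGTG of the recombination signal, searched on both strands, was found in 7 of the 169 BURs (4.14%, all at the alpha/delta locus) and in 5.62% of all BURs. The letters AATATATTT, on both strands, were in 16 of the 169 (9.47%) and in 8.52% of all BURs, and in 0 of the 13 bound in both thymocyte lists.

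Most BURs of the TCR loci carried no SATB1 peak in vivo, also in thymocytes, the cells in which these genes are active. A BUR was counted as bound when it shared at least 1 bp with a urea SATB1 peak. In thymocytes, 8.28% of the 169 BURs were bound in replicate 1 (whole map 14.3%) and 7.69% in replicate 2 (whole map 12.6%), a mean of 7.99% ± 0.418 (SD, n = 2). In skin, 3.55% and 4.14% were bound (whole map 3.68% and 3.61%), a mean of 3.85% ± 0.418. In brain, where SATB1 is made by neurons of the cortex, 23.1% and 26.6% were bound (whole map 36.2% and 33.4%), a mean of 24.9% ± 2.51. Of the 169 BURs, 121 were in no urea SATB1 list, and 39.6% of the whole map were in at least 1. In bulk chromatin, binding in fewer cells and weaker binding in all cells cannot be told apart.

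The percentage of TCR BURs bound thus stood in the order skin, thymocytes, brain with no overlap between the tissues, but so did the sizes of the lists, from 10846 and 11210 peaks in skin to 45049 and 38882 in thymocytes and 117963 and 109154 in brain. The order had an exact one-sided permutation p of 0.0111, the smallest that 90 arrangements of 6 lists can give, and it is the order known for all BURs, so the test is not independent evidence. When every list was cut to its 10846 strongest peaks, 4 and 4 TCR BURs were bound in thymocytes, 6 and 7 in skin and 5 and 5 in brain, so that skin was highest and thymocytes lowest, and the exact permutation p was 0.856. Divided by the share of the whole map in the same list, the TCR share was 0.581 and 0.609 in thymocytes, 0.965 and 1.15 in skin and 0.637 and 0.798 in brain. On the log2 scale the thymocyte ratio lay 0.54 below the mean of the other tissues, with an exact two-sided permutation p of 0.133, and 2 lists against 4 cannot go below 0.0667. The plot of bound BURs gives both views.

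**Figure D2:**
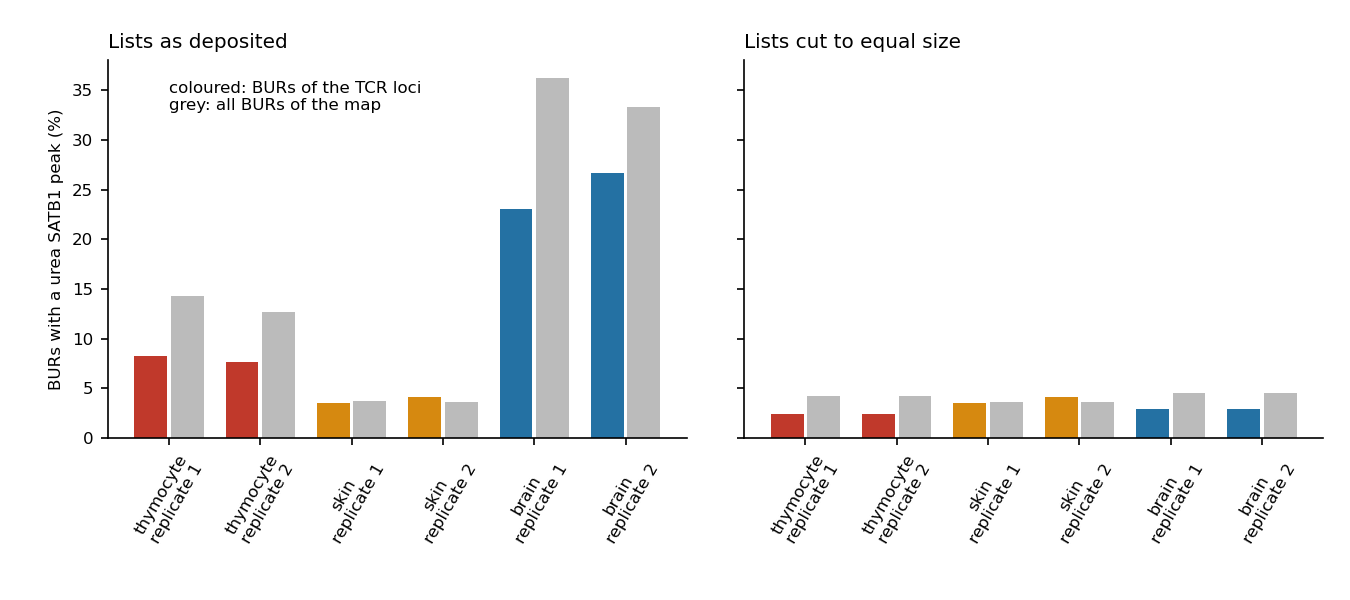
Percentage of BURs with a urea SATB1 peak, for the 169 BURs of the TCR loci (coloured bars) and all 238380 BURs (grey bars), in each of the 6 lists as deposited (left) and cut to 10846 peaks each (right), without error bars since each bar is 1 list. Thymocyte and brain bars of the TCR loci stand below the grey bars in both panels, and the order of the tissues at the left changes at the right, where skin is highest and thymocytes lowest.

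The 3 loci differed in their shares. In thymocytes, 5.86% ± 0.637 (SD, n = 2) of the alpha/delta BURs were bound, against 11.1% of the beta BURs and 15.4% of the gamma BURs in each list. In brain, 14.9% ± 0.637 of the alpha/delta, 47.8% ± 11.0 of the beta and 30.8% of the gamma BURs were bound. In skin, the shares were 1.80%, 3.33% ± 1.57 and 23.1%, the last being 3 of 13 BURs. Side by side, the immunoglobulin loci had 13.9% ± 0.861 of their BURs bound in thymocytes and the olfactory receptor surroundings 14.4% ± 1.37. The immunoglobulin loci differed among themselves, with 9.96% and 8.86% at Igh, 17.5% and 16.2% at Igk and 20% in each list at Igl. A low share was thus also seen at Igh. These differences between loci were not tested, because the BURs of a locus are not replicates.

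Repeated sequence moved with the low share at the alpha/delta locus. In that V part, 47.1% of the 50-base words of the reference occurred once in the genome, against 92.4% in its D, J and C part, 82.5% in the beta V part, 74.4% in the gamma window and 88.5% in the genome. Much of the V cluster exists in near-identical copies in this strain, whose segment names carry a d or an n, and the study states that only uniquely matching reads were kept, which these files alone do not show. Fewer than 50% of the words were single-copy in 39 of the 169 BURs, 36 of them in the alpha/delta V part, and in 2.88% of a sample of every 100th BUR of the map. None of these 39 was bound in both thymocyte lists or in both brain lists. Among the 130 other BURs, 10.8% and 10.0% were bound in thymocytes, against 13.5% and 11.9% of the BURs of the sample under the same condition. In brain these values were 30.0% and 34.6% against 38.1% and 34.5%, and in skin 4.62% and 5.38% against 3.76% and 3.37%. A stretch of 646 kb at chr14:53341752-53988220 held 37 BURs and 58 V segments and not a peak of any urea SATB1 list. Of these 37 BURs, 28 were under 50% single-copy and 9 were not.

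Bound BURs of thymocytes were also bound in brain, as were most of those of the whole map. A peak was present in both thymocyte lists at 13 BURs of the TCR loci (whole map 11.1%), in both skin lists at 5 (whole map 3.1%) and in both brain lists at 36 (whole map 30.6%). All 13 thymocyte BURs were also in both brain lists, and 4 of them in both skin lists. Of the 26344 BURs of the whole map in both thymocyte lists, 6647 were also in both lists of brain and of skin. A further 19000 were in both lists of brain but not of skin, 175 of skin but not of brain and 522 of neither. No TCR BUR was bound in both lists of thymocytes alone, whereas 22 were bound in both lists of brain alone, 13 of them at the beta and 9 at the alpha/delta locus. In the whole map, 0.219% of the BURs were bound in both lists of thymocytes alone and 19.8% in brain alone, against 13.0% of the TCR BURs in brain alone.

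Along the loci, 1 of the 12 BURs of the D, J and C parts and 12 of the 136 of the V parts were in both lists, a difference of -0.49 percentage points that turned positive under other definitions of a bound BUR and was not tested. The 12 include the 9 gamma BURs nearest to a J or C segment.

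The BURs bound in thymocytes included 2 at the gamma locus, 6 at the alpha/delta locus and 5 at the beta locus. The one with the highest thymocyte enrichment lay in the joining part of the alpha/delta locus (chr14:54827786-54828264), 0.804 kb from the J segment Gm16653 and 11.9 kb upstream of Trac, and its sequence is given above. Its fold enrichment was 21.7 and 23.4 in thymocytes, 10.1 and 11.5 in skin and 18.5 and 18.2 in brain, so the tissues did not overlap and skin was lowest. Standard SATB1 replicate 2 also had a peak there (5.60) and replicate 1 had none. Fold enrichment is measured against a local background, whose library the sources do not give, and is not scaled between lists. The other 2 BURs of that part were weaker or absent in vivo: chr14:54759473-54759798, 2.96 kb from Trdj2, was bound in brain alone (6.33 and 7.51), and chr14:54747615-54748133, 4.75 kb from Trdj1, was in no list although its in vitro enrichment was 11.4.

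The other 5 alpha/delta BURs lay among V segments and had lower thymocyte values. The BUR at chr14:54584464-54584750, 3.19 kb from Gm17015, had 7.88 and 10.4 in thymocytes and 9.01 and 8.87 in brain, so these tissues overlapped. The BUR at chr14:54304104-54304577, 0.253 kb from the V segment Gm13908, had 6.86 and 5.46 in thymocytes and 24.9 and 22.3 in brain, the highest brain values of the loci. The BURs at chr14:54401551-54402172 and chr14:54489953-54490656 had 6.86 and 4.68 and, for the latter, 5.84 and 5.72 in thymocytes, and 14.6 and 15.3 and, for the latter, 17.5 and 14.6 in brain. In these BURs and the one near Gm13908, brain stood above thymocytes in both lists. The BUR at chr14:53340552-53341782, 3.19 kb from Trav6d-3, had 6.10 and 5.20 in thymocytes and 7.11 and 7.72 in brain.

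The beta BURs bound in thymocytes all lay in the V part. The BUR in the intron of Gm4744 (chr6:40903401-40903950), 61.5 kb from Trbv1, was bound alike in every tissue, with 18.4 and 17.5 in thymocytes, 16.6 and 17.9 in skin and 19.1 and 16.9 in brain. The BUR near Trbv21 (chr6:41156199-41156609) had 20.8 and 16.8 in thymocytes, 17.5 and 15.7 in brain and 5.53 in skin replicate 2 alone. The BURs at chr6:40853219-40853698, chr6:41051153-41051665 and chr6:41163736-41164162 had means of 11.3 ± 0.283, 9.51 ± 0.206 and 6.95 ± 0.842 in thymocytes (SD, n = 2) and 12.9 ± 1.44, 14.1 ± 0.298 and 8.70 ± 0.749 in brain. None of these 3 had a peak in skin. Of the 5 BURs in the interval before Trbd1, those at chr6:41302503-41302857 and chr6:41303665-41303952 were bound in both brain lists (means 7.19 ± 0.726 and 11.5 ± 1.53) and none in thymocytes. The repeat-bearing BUR near Trbd1 (chr6:41480120-41480616) was in no urea SATB1 list and met a peak of standard SATB1 replicate 2 (4.06) and of skin CTCF (3.48).

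At the gamma locus, the BUR near Tcrg-V3 (chr13:19338075-19338574) had 18.4 and 19.9 in thymocytes, 12.2 and 7.37 in skin and 21.0 and 20.3 in brain. The BUR at chr13:19424517-19425306, 3.14 kb from Tcrg-V2, had 5.59 and 5.98 in thymocytes, 6.29 and 6.14 in skin and 18.8 and 18.6 in brain, so brain stood above the other tissues. Another BUR, chr13:19293123-19293727, was bound in skin (5.03 and 4.91) and brain (13.8 and 10.8) and not in thymocytes. The plot of the BURs bound in thymocytes sets these values beside the in vitro enrichment.

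**Figure D3:**
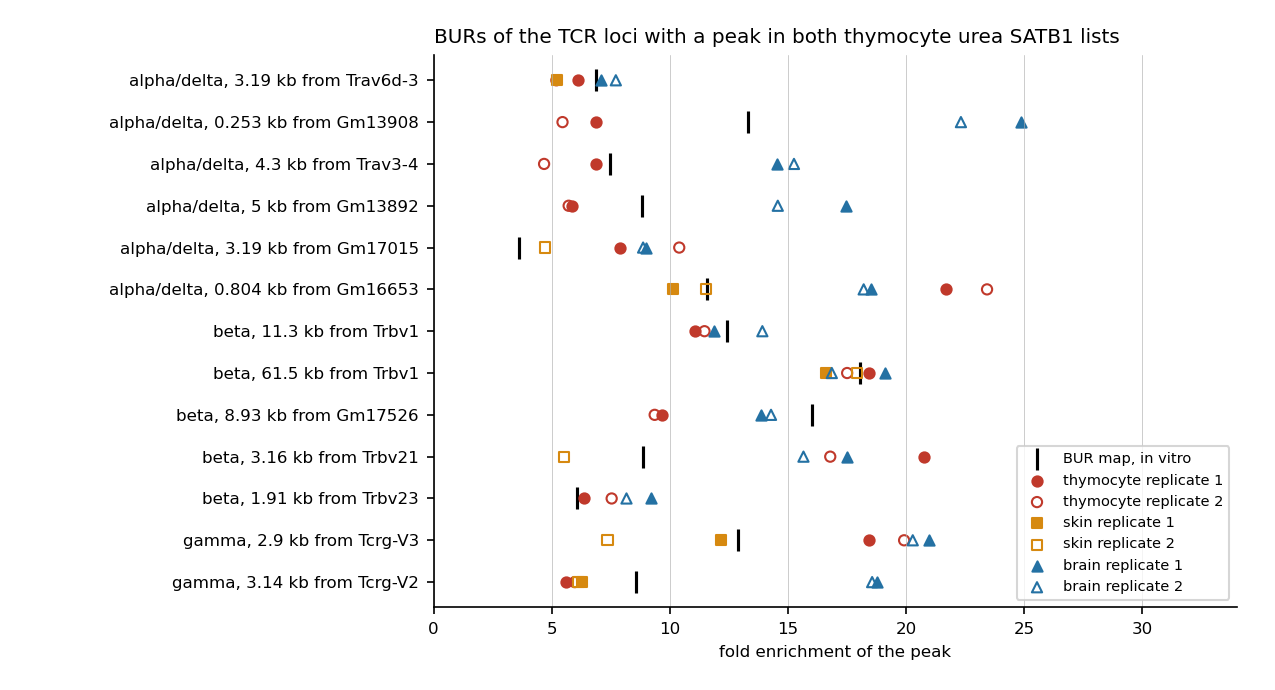
Fold enrichment of the peaks over the 13 BURs of the TCR loci with a peak in both thymocyte urea SATB1 lists, 1 row per BUR named by its nearest segment, with filled symbols for replicate 1, open symbols for replicate 2 and a black line for the in vitro map. A missing symbol means no peak in that list. The row near Gm16653 has the highest thymocyte values (21.7 and 23.4) and the row near Gm13908 the highest brain values (24.9 and 22.3).

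The BURs with the highest in vitro enrichment were in part unbound. Of the 3 alpha/delta BURs with the highest in vitro enrichment, at chr14:53112734-53113278 (19.6), chr14:53458801-53459357 (18.2) and chr14:53283908-53284481 (17.0), 0 met a urea SATB1 peak (whole map 39.6% in at least 1 list). The first and the last of these were 92.7% and 91.6% single-copy, and the other 5.51%. The beta BUR in an intron of the protease gene Prss58, with an in vitro enrichment of 15.2 and entirely single-copy, was unbound as well. In contrast, the BURs highest in vitro at the beta (in Gm4744, 18.1) and gamma (near Tcrg-V3, 12.9) loci had a peak in all 6 urea SATB1 lists. The median in vitro enrichment was 8.87 in the 13 BURs bound in both thymocyte lists and 6.09 in the 155 bound in neither, as descriptions without a test. Over the whole map it was 8.61 in the BURs bound in both thymocyte lists and 5.34 in those in no urea SATB1 list. The TCR value that matches the latter was 6.47, in the 121 BURs in no urea SATB1 list.

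Seen from the peaks, urea SATB1 at the TCR loci lay mostly on BURs. Thymocyte replicate 1 had 15 peaks in the windows, 14 of them on a BUR (whole list 75.8%), and replicate 2 had 16, with 13 on a BUR (whole list 77.6%). Skin had 6 of 7 and 7 of 8 peaks on a BUR (whole lists 78.4% and 79.4%), and brain 40 of 61 and 46 of 62 (whole lists 73% and 72.8%). The means were 87.3% ± 8.54 in thymocytes, 86.6% ± 1.26 in skin and 69.9% ± 6.10 in brain (SD, n = 2). With so few peaks, 1 peak moves the thymocyte and skin shares by several points.

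The exception shared by all tissues was a gamma peak. Off the BURs, 1 peak was present in both thymocyte lists, 1 in both skin lists and 10 in both brain lists, and 1 of them was common to all 6. It lay at chr13:19301222-19301667 in thymocyte replicate 1, 0.545 kb from the J segment Gm17003 and 6.36 kb from the nearest BUR. Its fold enrichment was 13.6 and 10.4 in thymocytes, 7.13 and 6.96 in skin and 21.5 and 18.4 in brain. In brain these values were close to those of the BUR near Tcrg-V3 (21.0 and 20.3), and in thymocytes they were below its 18.4 and 19.9. The 300 bases around its thymocyte summit (chr13:19301301-19301600, plus strand) were 71.0% A/T, close to the median of the BURs, and their longest stretch without G, in capitals, was 29 bp. This sequence was chosen for display after its values were seen.
Gamma urea SATB1 peak near Gm17003: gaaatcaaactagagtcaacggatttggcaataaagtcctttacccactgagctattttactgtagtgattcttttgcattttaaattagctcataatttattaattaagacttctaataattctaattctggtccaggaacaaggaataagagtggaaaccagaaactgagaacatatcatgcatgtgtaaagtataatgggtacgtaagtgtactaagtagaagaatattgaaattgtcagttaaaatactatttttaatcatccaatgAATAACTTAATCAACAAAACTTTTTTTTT
Brain peaks off the BURs included one at chr14:54394119-54394673, 0.219 kb from a BUR and 1.96 kb from Trav3-4 (13.8 and 13.8), one in an exon of the J segment Gm16768 (chr14:54777767-54778214, 6.52 and 4.86) and 4 in the interval before Trbd1, where a peak at chr6:41446048-41446634 had 8.82 and 11.5.

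Standard SATB1 ChIP-seq drew a different picture of the same loci, with many of its peaks at V segments and few on BURs. Replicate 1 had 214 peaks in the windows (182 alpha/delta, 24 beta, 8 gamma) and replicate 2 had 112 (94, 17 and 1). They amounted to 8.08 and 4.23 per 100 kb, against 1.87 and 1.05 per 100 kb of the genome in the same lists. In the alpha/delta V part, 171 and 85 peaks gave 11.3 and 5.64 per 100 kb. Of the 18 alpha/delta bins of 100 kb, 10 and 8 exceeded the 95th percentile of the genome's bins, 8 and 5 peaks. On a BUR lay 1 of the 214 peaks (whole list 3.78%) and 3 of the 112 (whole list 5.2%), and 0.686% and 0.565% of all BURs met a standard peak, against 0.59% and 1.78% of the TCR BURs. The study reports that some standard SATB1 peaks, mostly in open chromatin, also appeared in thymocytes without SATB1. The knockout samples of the series were not analysed here, so such peaks were not set apart at the TCR loci.

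Many of the standard peaks lay close to the 5′ ends of V segments. Within 500 bp of such an end lay 115 of the 214 peaks of replicate 1 (53.7%) and 54 of the 112 of replicate 2 (48.2%). The share of all standard peaks of the genome that lay near a gene start is not given here. Within 500 bp of the 5′ end, 97 of 137 V segments (70.8%) had a peak in replicate 1 and 51 (37.2%) in replicate 2, and 49 had one in both, 43 at the alpha/delta, 6 at the beta and 0 at the gamma locus. Among the starts of protein-coding genes, the shares were 48.5% and 36.5%, among immunoglobulin V segments 26.1% and 20.2%, and among olfactory receptor genes 0.879% and 0.240%. By locus, 78.5% and 42.1% of the alpha/delta V segments had a standard peak in replicates 1 and 2. The beta shares, 39.1% and 26.1%, lay below those of protein-coding genes, and the gamma shares were 57.1% and 0%. Along the alpha/delta V segments, the share inside a peak was highest 100 bp upstream in replicate 1 (52.3%) and 200 bp upstream in replicate 2 (29.0%). It fell to 4.67% and 1.87% at 200 bp downstream, with a lower rise around 600 bp downstream (27.1% and 10.3%). At the beta V segments, replicate 1 reached 21.7%, 5 of 23 segments. No V segment had a thymocyte or skin urea SATB1 peak within 500 bp of its 5′ end, and 1 had one in brain, in replicate 2 alone.

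**Figure D4:**
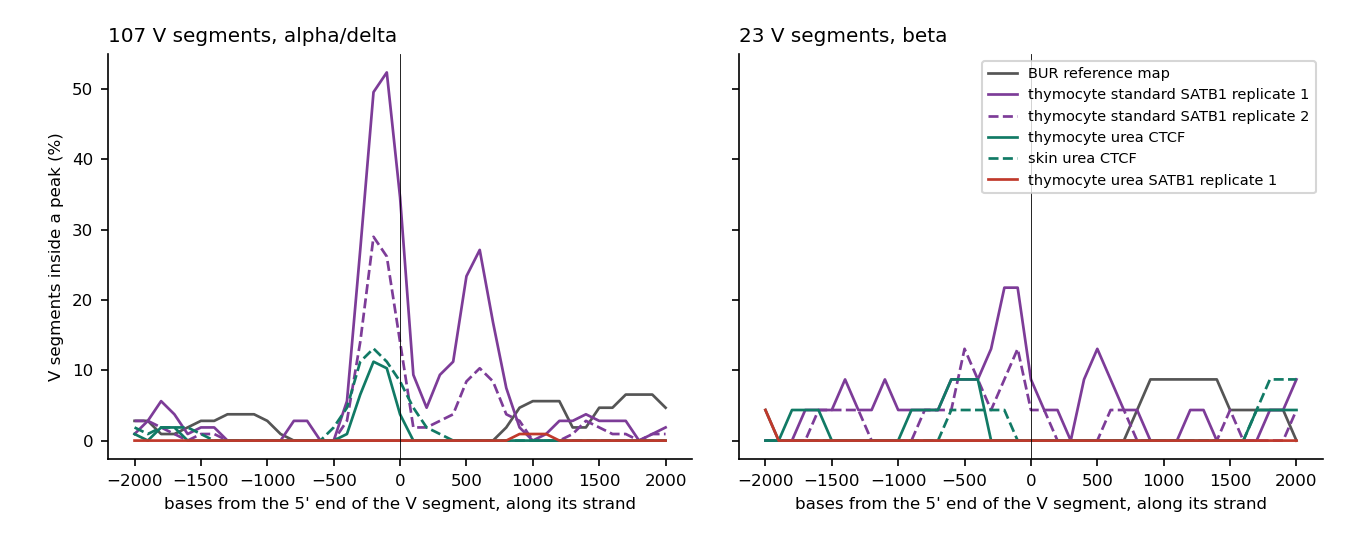
Percentage of V segments of the alpha/delta (left) and beta (right) locus that lie inside a peak, by distance in bases from the 5′ end along the segment's strand, for the BUR map and 5 ChIP lists. The standard SATB1 lines rise to 52.3% and 29.0% upstream of the alpha/delta V segments, and the BUR line is at 0 around the 5′ ends.

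Repeated sequence moved with these peaks too, in the opposite sense. Fewer than 50% of the 50-base words were single-copy in 106 of the 214 peaks of replicate 1 and 57 of the 112 of replicate 2, and in 56 and 33 of them none was. In the urea SATB1 lists of the windows, the counts were 0 and 0 in thymocytes, 1 and 0 in skin and 0 and 1 in brain. All 58 V segments whose sequence within 500 bp of the 5′ end was under 50% single-copy lay at the alpha/delta locus, and 50 and 28 of them had a standard peak. Among the 79 other V segments, 47 (59.5%) and 23 (29.1%) had one. Counting only peaks of at least 50% single-copy words, the standard density over that of the genome was 2.23 and 2.01. The lengths behind these densities were not cut to single-copy sequence. Peaks without a single-copy word would stand against the stated use of unique matches if the reads were 50 bases long. The read length behind the standard lists was not available to check, and longer reads may match uniquely there. The part of mapping in these counts was not tested. The BUR map also held regions without a single-copy word, such as chr14:53452768-53453262 and chr14:53453883-53454194. The standard replicates also differ in antibody, sonication and possibly age, which cannot be told apart.

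**Figure D5:**
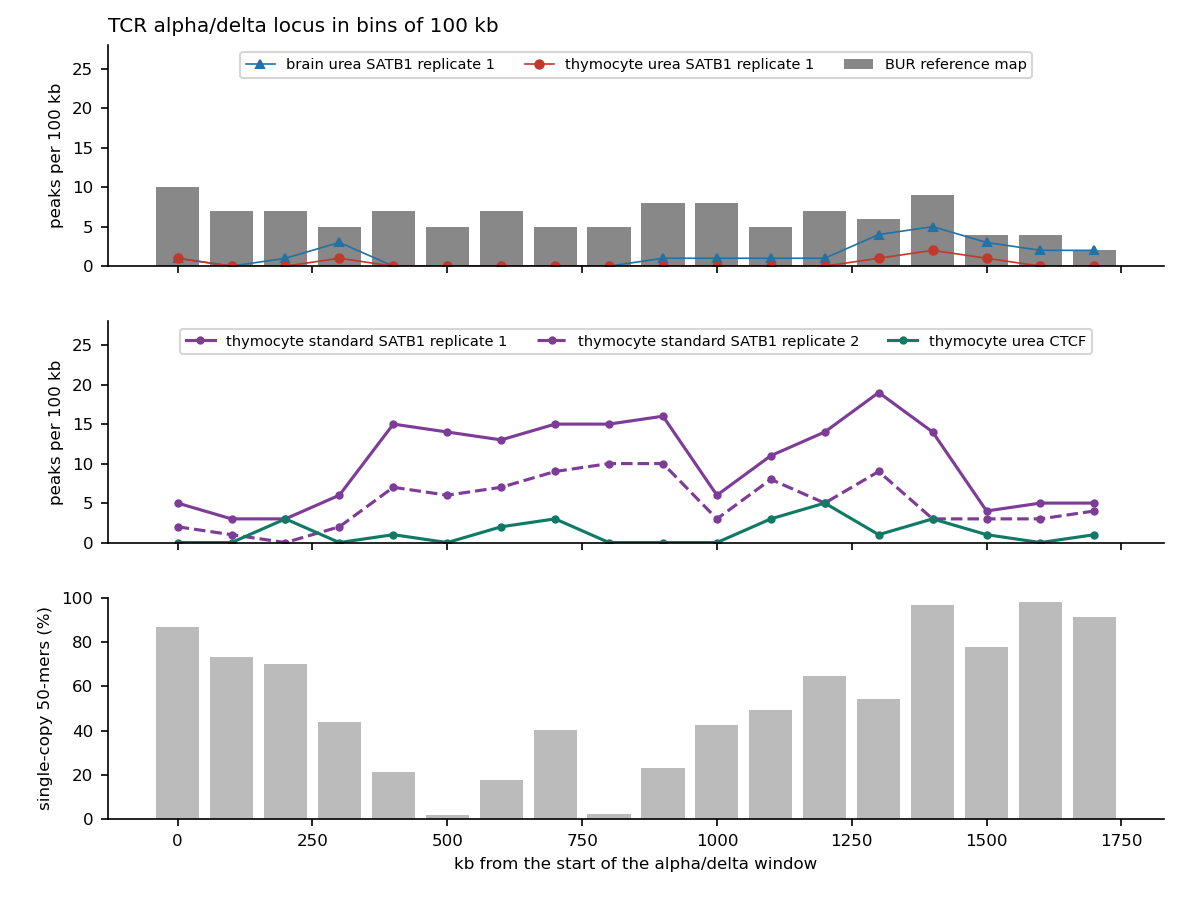
The alpha/delta locus in bins of 100 kb, by distance in kb from the start of the window, with BURs and urea SATB1 peaks (top), standard SATB1 and thymocyte CTCF peaks (middle) and the percentage of 50-base words found once in the genome (bottom). The bins centred 500 and 800 kb from the start have 1.98% and 2.40% single-copy words, 14 and 15 standard peaks in replicate 1 and none of the urea SATB1 peaks drawn.

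The strongest standard peaks of the V parts in both lists lay up to several kb from V segments. At the alpha/delta locus they were chr14:53754395-53754903, 1.58 kb from the V segment Gm10895 (17.4 and 18.5), chr14:53943896-53944358 in an exon of Gm10905 and 4.94 kb from the V segment Gm10904 (15.6 and 14.4) and chr14:53443637-53444079 over Trav11d (14.7 and 14.5). At the beta locus they were chr6:41165781-41166297 over Trbv23 (13.2 and 6.78), chr6:41068264-41068615 near Trbv12-2 (7.99 and 6.84) and chr6:41087124-41087348 near Trbv14 (5.56 and 7.97). The only gamma peak in both lists lay 2.24 kb from Tcrg-V4 (chr13:19274107-19274613, 16.1 and 8.15). Replicate 1 was the higher in most of them, and the spread at Trbv23 and Tcrg-V4 was wide.

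On the joining and constant sides, standard peaks lay next to D and J segments and downstream of the constant genes, where the alpha and beta enhancers are known to be. The beta D, J and C part had 2 peaks in each list, 13.4 per 100 kb, against 3.84 and 2.3 in the beta V part. The alpha/delta D, J and C part had 6 in each list, 5.47 per 100 kb. At the beta locus, a peak at chr6:41482784-41483185 ended 0.015 kb from Trbd1 (10.8 and 6.25), one lay 0.080 kb from Trbd2 (chr6:41491760-41492082, 3.44 and 3.01) and one 0.459 kb from Trbj2-7 (chr6:41494314-41495022, 4.59 and 3.89). Between Trbc2 and Trbv31, the peak at chr6:41504250-41505001 had 7.42 and 6.62. At the alpha/delta locus, peaks lay 0.800 kb from Trdv5 (chr14:54767137-54767537, 8.68 and 7.86), 1.79 kb from Gm17363 (chr14:54772412-54772888, 6.65 and 3.76) and over the J segment Gm16671 (chr14:54801100-54801300, 3.26 and 3.80). The peak 3.79 kb downstream of Trac (chr14:54846565-54847832) had 8.12 and 7.47. Between Trbc2 and Trbv31 and beside Trbv31 lay weaker peaks, 4.06 kb (chr6:41503269-41503629, 3.10 and 3.75) and 0.013 kb (chr6:41508383-41508652, 3.46 and 2.68) from it. At the upstream ends of the windows, a peak lay 0.048 kb from Trbv1 (chr6:40841012-40841247, 6.59 and 7.03) and one over Olfr1509 (chr14:53070663-53071250, 11.4 and 4.92). None of these peaks was on a BUR or met a urea SATB1 peak of thymocytes.

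In the alpha/delta D, J and C part, further standard peaks were in 1 list alone. Replicate 1 had peaks 1.51 kb from Trdj2 (3.85), over the J segment Gm17012 (4.54) and 0.001 kb from the J segment Gm16922 (3.85), and replicate 2 had peaks 0.116 kb from Trdj2 (4.18) and 0.870 kb from the J segment Gm16669 (3.58). Urea SATB1 of thymocyte replicate 2 had 1 further peak there, off the BURs and 1.02 kb from the J segment Gm16773 (chr14:54783733-54783974, 4.94).

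CTCF was also found beside V segments and off the BURs. The thymocyte and the skin list each had 33 peaks in the windows, of which 0 and 1 were on a BUR (whole lists 2.9% and 4.29%), and 0% and 0.59% of the TCR BURs met one (whole map 0.244% and 0.564%). Of the 33 thymocyte peaks, 26 met a standard SATB1 peak of replicate 1 (whole list 52.9%) and 17 one of replicate 2 (whole list 24%), and none met a thymocyte urea SATB1 peak. A thymocyte CTCF peak lay within 500 bp of 18 V segments (13.1%, protein-coding starts 8.58%), and 7 of these also had a standard SATB1 peak in both lists. A skin CTCF peak did so at 18 as well (protein-coding starts 9.81%). The strongest thymocyte CTCF peak lay 4.77 kb downstream of Trac (chr14:54847537-54848126, 12.7), and the strongest of the beta locus 0.678 kb from Trbv2 (chr6:40996580-40996877, 11.6). Other strong thymocyte CTCF peaks lay 2.99 kb (chr14:54161400-54161677, 10.9) and 0.079 kb (chr14:54157606-54157856, 10.8) from Gm17011, 0.362 kb from Trbv12-1 (chr6:41062897-41063204, 11.4), 1.96 kb from Trav17 (chr14:54423933-54424244, 10.3) and 3.54 kb from Trbv4 (chr6:41005602-41005899, 10.3). The only CTCF peak of the alpha/delta D, J and C part in thymocytes lay 1.84 kb from Gm17363 (chr14:54772645-54772841, 8.35), inside the standard SATB1 peak named above, and the skin list had a peak there too (4.28). The gamma locus had 1, 6.13 kb from Tcrg-V3 (chr13:19328327-19328583, 7.06). Another thymocyte CTCF sample of the series was not analysed here, so these CTCF values have no replicate.

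The other genes of T-cell receptor assembly and signalling were counted in the same way. The list held Rag1 and Rag2, which encode the recombinase, Dntt, which adds bases at the joins, Ptcra, Cd3e, Cd3d, Cd3g and Cd247, whose products form the receptor with its TCR chains, and Lck, Zap70, Lat, Cd4, Cd8a and Cd8b1 of its signalling. Within 10 kb of the 14 genes lay 32 BURs, 5.84 per 100 kb, and only Lat and Cd8a had none. Of all protein-coding genes, 74.8% had a BUR within 10 kb. A thymocyte urea SATB1 peak was near 5 of the 14 in both lists, namely Ptcra, Cd3e, Cd3d, Cd247 and Zap70 (all protein-coding genes 31.2%). Rag1 had 1 such peak in replicate 1 alone. The study describes a SATB1-bound BUR with a strong thymocyte peak near Rag1 and Rag2, which is not set against these windows here. A brain peak was near 8 and 7 of the 14 genes (all genes 53.2% and 51.3%), and a skin peak near 0 (all genes 16.4% and 15.9%). A standard SATB1 peak was near all 14 in both lists (all genes 57.9%), with the highest number at Cd247 (17 and 11), which also has the longest window. The list is too short to say that it differs from other genes, and no test was made. Neighbouring genes of the list, such as Cd3e and Cd3d or Rag1 and Rag2, share part of these windows.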

How the data were processed

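Per the methods and the submitters' processing notes, the authors aligned reads with Bowtie2 2.3.1 to NCBI37/mm9, kept unique matches and called peaks per sample with MACS2 2.2.7. The control library for peak calling is not given in the sources used here. Each deposited list gives, per peak, the fold enrichment at the summit over a local background, the −log10 p and −log10 q within that list, and a display score that the authors' caller derived from the q value and that was not used. Of the 38 labelled samples, the 11 with a peak list of the design were used, and the others were not analysed here. Depth is unknown, so no counting interval is given, and peak lists hold no expression to check the labelled tissues against.

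A peak belonged to a window by its midpoint, and a BUR was bound when it shared at least 1 bp with a peak. V, D, J and C segments came from GENCODE vM1 on NCBIM37, which files TCR segments under immunoglobulin biotypes. At the gamma locus, each BUR was assigned to its nearest segment. The regions named were, by rule, the BURs in both thymocyte lists, the standard SATB1 peaks of both lists and the thymocyte CTCF peaks (per part all if 5 or fewer, otherwise the 3 strongest) and the peaks of each list in the D, J and C parts. Others, such as the unbound BURs and their neighbours, the peaks off BURs and the 50-base word counts, were chosen after their values were seen. A sequence that the display rule selects is not reported here. The windows, gene lists and order test were chosen with earlier results of these data known. Single-copy words were 50-base words occurring once in NCBIM37 on either strand, counted for the windows, for every 100th BUR and for samples of the genome. Tests were exact permutations over lists, and they measure only the spread between these lists. Counting and tests were checked on simulated lists. Alternatives covered the q threshold, the overlap, equal list sizes, left-out lists, permutation within replicate numbers and regions shared by all lists. Python 3.11.15, numpy 2.4.6, pandas 2.3.3, scipy 1.17.1, numba 0.67.0, pysam 0.24.0 and matplotlib 3.10.9 were used.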

Additional observations from a re-analysis of the deposited data

Results flagged for a closer look

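The 3 TCR windows together were poorer in urea SATB1 peaks and richer in standard SATB1 peaks than the genome in the same list. Peaks per 100 kb in the windows, divided by those of the genome, were 0.322 and 0.398 in the thymocyte urea lists and 4.32 and 4.02 in the standard lists. The ratios were 0.615 and 0.727 in skin and 0.499 and 0.548 in brain, both by urea ChIP-seq. Over the 3 windows together, every urea SATB1 list lay below 1 and both standard lists above, which is what drew attention to them. Single windows departed from this. The gamma window had ratios of 5.17 and 5.35 in skin (4 peaks in each list), 1.10 in thymocyte urea replicate 2 (3 peaks) and 0.529 in standard replicate 2 (1 peak), and the beta window 1.15 in brain replicate 2. The difference was not tested, since 2 lists against 2 cannot pass a threshold of 0.05. Among peaks with at least 50% single-copy words, the ratios were 0.324 and 0.400 in thymocyte urea, 0.547 and 0.778 in skin, 0.502 and 0.542 in brain and 2.23 and 2.01 in standard lists.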

How the results depend on the processing

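The results with fixed alternatives were recomputed under each of them, and 94 of the 103 recomputed values kept their direction, their side of the threshold or stayed within the spread. Some of these could not move, such as a thymocyte value when a list of another tissue was left out. The order skin, thymocytes, brain had a p of 0.856 with lists of equal size. Leaving out any list gave an exact permutation p of 0.0333. The log2 difference between thymocytes and the other tissues ran from -0.69 to -0.41 over the left-out lists and did not pass the threshold in any setting.

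The difference between the D, J and C parts and the V parts in the share bound was -0.62 percentage points with a −log10 q of at least 5 and -4.04 with single-copy BURs, and it turned to 2.45 with 50% overlap, 0.245 with the summit inside the BUR and 6.13 with lists of equal size. It rests on 1 BUR of 12, and it was -0.49 with either thymocyte list left out. The share of skin peaks on a BUR was 80.4% with 50% overlap and also with the summit inside the BUR. Standard SATB1 had a mean of 163 peaks in the windows, 112 to 214 with 1 list left out, and 81.5 with single-copy peaks. The restrictions to single-copy BURs and peaks were chosen after seeing the data. The cause of these shifts was not tested. The 57 regions with a peak in all lists lay outside the windows, so leaving them out changed no count there.

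Replicate numbers in the labels name replicates without a shared animal or day, so they do not pair the tissues. With the replicate number as a replicate block, the exact permutation p of the order was 0.0278, the smallest that 36 arrangements allow, and that of the log2 difference of -0.54 was 0.222, where 9 arrangements allow 0.111 at least.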
